A study of Oryctolagus cuniculus with 12 samples.

Results

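Oxidative phosphorylation is carried out by 5 protein complexes of the inner mitochondrial membrane, and the genes for their subunits were followed here across normal and scarred rabbit ear. Members were the protein-coding genes listed on the mitochondrial chromosome (MT), together with nuclear genes whose symbol marks them as a subunit of complexes I to V, with assembly factors left out. The rule found 47 of the 29587 genes listed, 13 of them mitochondrially encoded and 34 nuclear, and all 47 were among the 13287 genes tested, which had a mean FPKM of at least 1 (fragments per kilobase of gene, scaled to the library size, the unit of the deposited values). Of the mitochondrially encoded members 7 belong to complex I, 1 to complex III, 3 to complex IV and 2 to complex V. Of the nuclear members 18 belong to complex I, 2 to complex II, 3 to complex III, 4 to complex IV and 6 to complex V, and the last is NDUFA4L2, a relative of a complex IV subunit.

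The mRNA of whole full-thickness ear tissue was sequenced in bulk from female wild-type rabbits aged 10 to 12 weeks, with 3 samples in each of 4 groups, all harvested on day 43. NS was ear skin of rabbits that were not treated, and HS was hypertrophic scar, a raised scar left after excision of ear skin, that was also not treated. In the drug-loaded MNs group each scar received 1 patch of separating microneedles of crosslinked gelatin that carried a prodrug of 5-fluorouracil, and in the 5-Fu injection group each scar received 0.1 mL of 5-fluorouracil solution (120 μg), in both groups on days 22, 29 and 36. The strain is not given in the sources used here. Each group had its own 3 rabbits, but the labels do not tie samples to animals, so p-values measure the spread between these samples, which may be in part technical.

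Complexes I to IV pass electrons from NADH and succinate to oxygen and pump protons, and complex V (ATP synthase) uses the returning protons to make ATP. Each complex other than complex II joins subunits made inside the mitochondrion from its own DNA with subunits made from nuclear genes and imported. The mitochondrial genes are copied from both strands as long transcripts that are cut into shorter RNAs. Most of the resulting mRNAs receive short poly(A) tails. Nuclear genes are transcribed one by one. The agent 5-fluorouracil is a pyrimidine analogue that inhibits thymidylate synthase and enters RNA and DNA.

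Reads on genes, counted back from the deposited values, ranged from 10521472 to 14043667 per sample. Skin identity was checked on markers fixed for the design. The keratins KRT5, KRT1 and KRT10 were expressed in every sample, with KRT5 between 207 and 952 FPKM. The summed FPKM of 7 fibroblast markers was 2430 to 3415 in NS samples, 37473 to 49111 in HS samples and 19058 to 27335 in drug-loaded MNs samples. For 5-Fu injection it was 5010, 26892 and 6725 in replicates 1, 2 and 3, so replicate 2 stood apart from the other two. Of the 12 skeletal muscle markers, 9 were listed and 4 tested. The summed FPKM of the 9 listed was 22.1 to 83.0 in NS and 11.6 to 25.8 in the scar groups. In bulk tissue, fewer cells of a type and less RNA per cell cannot be told apart.

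Mitochondrially encoded mRNAs made up most of the oxidative phosphorylation transcripts. Their part of the members' summed FPKM was between 89.6% and 94.3% in each sample. The highest mean FPKM over the 12 samples were those of ATP6, the proton channel subunit of ATP synthase (10790), COX1, the catalytic core of cytochrome c oxidase (10115), and COX2, which receives electrons from cytochrome c (8751). CYTB, the cytochrome b of complex III, followed at 5720 and COX3 at 4756. The 7 complex I genes lay between 1430 for ND4L and 3614 for ND6. ATP8, a small subunit of ATP synthase, was by far the lowest of the 13, at 267. The nuclear members were led by ATP5F1E (747), the epsilon subunit of ATP synthase, COX8A (422) and ATP5F1B (302), its catalytic beta subunit. The lowest nuclear members were NDUFS1 (26.9), the iron-sulfur subunit of complex I, and COX7A1 (3.42), the complex IV isoform best known from heart and skeletal muscle.

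The share of reads on genes that fell on the 13 mitochondrially encoded members was 4.48%, 6.08% and 6.40% in the NS samples. The HS samples had 3.66%, 3.10% and 3.73%, the drug-loaded MNs samples 4.38%, 4.21% and 5.18%, and the 5-Fu injection samples 5.29%, 7.38% and 10.3%. Every HS sample lay below every sample of the other 3 groups, and 5-Fu injection replicate 3 was the highest of all. From the lowest group mean to the highest, HS had 3.50% ± 0.344 (SD, n = 3), drug-loaded MNs 4.59% ± 0.517, NS 5.65% ± 1.03 and 5-Fu injection 7.64% ± 2.50. The exact (Clopper-Pearson) 95% interval of each share was at most 0.0348 percentage points wide and covers counting error only. The share of the 34 nuclear members was 0.311% to 0.361% in HS, 0.420% to 0.448% in NS, 0.375% to 0.509% after 5-Fu injection and 0.341% to 0.402% after drug-loaded MNs. A share of reads moves with what the rest of the library holds, and fibroblast markers took far more reads in HS than in NS. Outside those 7 markers the mitochondrial share had a mean of 5.73% in NS, of 8.12% after 5-Fu injection, of 5.13% after drug-loaded MNs and of 4.26% in HS.

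The level of mitochondrially encoded against nuclear members was also set within each sample, as the mean log2(FPKM + 1) of the 13 minus that of the 34, which hardly depends on the scaling of the library. The NS samples had 4.52, 4.89 and 4.98, the HS samples 4.58, 4.52 and 4.59, the drug-loaded MNs samples 4.64, 4.58 and 4.53, and the 5-Fu injection samples 4.55, 5.32 and 5.34. By this mean the HS and drug-loaded MNs samples lay close together, and the NS and 5-Fu injection groups each held 1 sample near that range, replicate 1 in both, and 2 above it. That picture depended on the summary, since with medians over members in place of means the 5-Fu injection samples had 4.96, 5.10 and 5.43, all above the HS samples (at most 4.42) and the drug-loaded MNs samples (at most 4.76). The difference between drug-loaded MNs and HS was 0.02 by means, 0.20 by medians, 0.17 without ATP8 and -0.10 with the subunits added that are known only by description. In the 5-Fu injection group replicate 1 also had the highest summed FPKM of cartilage markers (5413, against 466 and 935 in replicates 2 and 3) and of keratinocyte markers (7061, against 3803 and 3965). In NS, replicate 1 had the highest cartilage sum as well (3296, against 1582 and 1776), but for keratinocyte markers replicate 3 was the highest (6782, against 5393 in replicate 1). In HS the cartilage sum was highest in replicate 3 (4698), whose difference of 4.59 was close to the 4.58 of replicate 1. In the drug-loaded MNs group replicate 3 had the highest cartilage sum (4763), the highest keratinocyte sum (11013) and the lowest difference (4.53). The part of these tissues in the mitochondrial to nuclear difference was not tested. As group means this was 4.56 ± 0.04 (SD, n = 3) for HS, 4.58 ± 0.05 for drug-loaded MNs, 4.80 ± 0.24 for NS and 5.07 ± 0.45 for 5-Fu injection. The small spread in HS depended on ATP8, without which the HS samples had 4.77, 4.72 and 5.02. Group means without ATP8 were 4.84 ± 0.16 for HS, 5.00 ± 0.06 for drug-loaded MNs, 5.03 ± 0.23 for NS and 5.43 ± 0.38 for 5-Fu injection. Since this measure is a score over chosen members, no p is given for it.

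**Figure D1:**
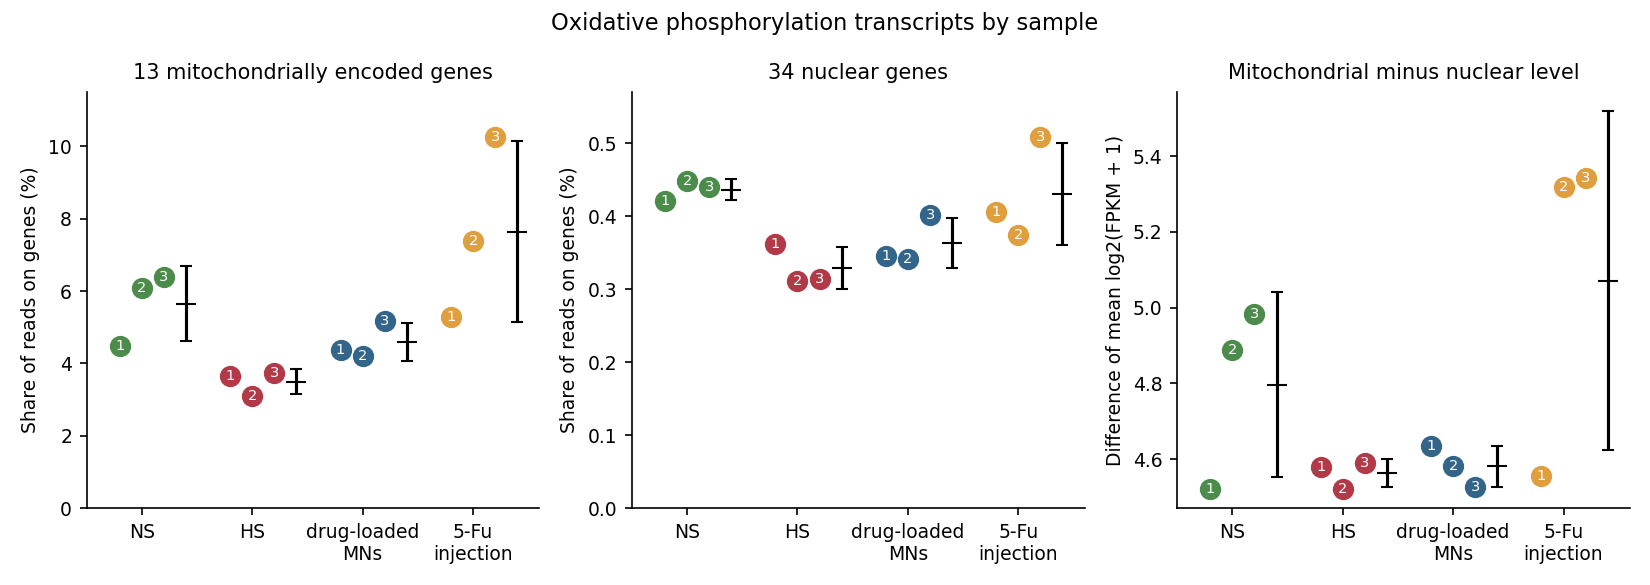
Share of reads on genes that lay on the 13 mitochondrially encoded and on the 34 nuclear members, in percent, and the difference of their mean log2(FPKM + 1), for each of the 12 samples by group, with numbered points for replicates and bars for the mean and SD (n = 3); the axis of the difference does not start at 0. HS samples lie between 3.10% and 3.73% for the mitochondrially encoded members, and 5-Fu injection samples between 5.29% and 10.3%.

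**Figure D2:**
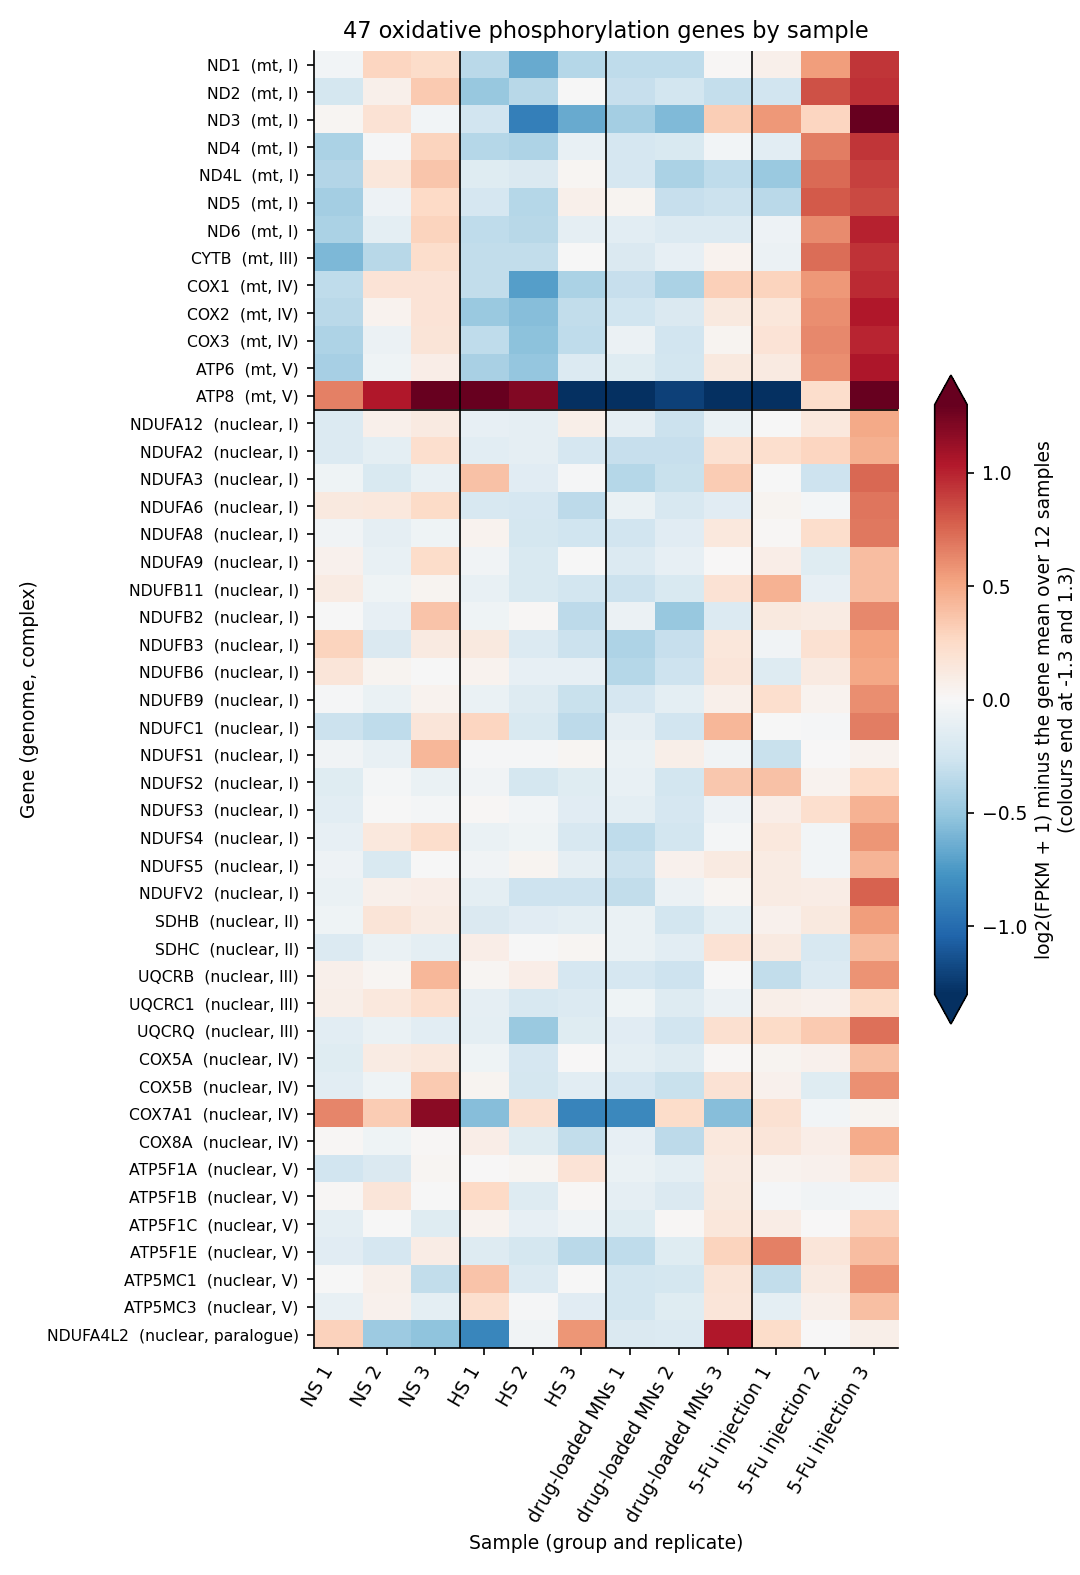
log2 level of each of the 47 members in each of the 12 samples relative to the gene's mean over all samples, with genes ordered by complex and genome. The column of 5-Fu injection replicate 3 holds the highest value of 12 of the 13 mitochondrially encoded and of 27 of the 34 nuclear members.

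Untreated scar was compared with normal skin to see what the scar itself changes. Mean levels of oxidative phosphorylation genes were mostly lower in HS, by small amounts, and no member passed the test. Markers of other cell types moved in the same comparison, as 9 of 9 tested keratinocyte markers had a lower mean in HS (median -0.90, with KRT2, KRT15 and KRT5 called), and 7 of 7 fibroblast markers a higher one, all called. Their part in the lower levels was not tested. Of the 13 mitochondrially encoded members 12 had a lower mean in HS and CYTB a slightly higher one, and 25 of the 34 nuclear members had a lower mean, while 48.6% of all genes tested had a higher one. The median log2 fold change was -0.30 for the mitochondrially encoded and -0.12 for the nuclear members, against -0.01 for all genes tested. These medians moved with single samples, to -0.16 and -0.06 without NS replicate 3 and to -0.45 and -0.14 without NS replicate 1, and quantile normalization gave -0.49 and -0.18. By limma with Benjamini-Hochberg adjustment over all 13287 genes, 0 of 13 and 0 of 34 members had an adjusted p under 0.05, where 7.45% of all genes did (2.21% lower and 5.24% higher). Before adjustment, 1 mitochondrially encoded (ND1) and 3 nuclear members (COX7A1, UQCRC1, NDUFA6) were lower in HS at a p under 0.05, against 10.2% of all genes, and 0 were higher, against 13.2%. All HS samples were below all NS samples in 2 of 13 and 7 of 34 members, against 15.3% of all genes tested. All were above NS in 0 of 13 and 1 of 34 members, against 18% of all genes.

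ND1 and ND3, core subunits of the membrane arm of complex I, were the 2 mitochondrially encoded members whose groups did not overlap. ND1 had an FPKM of 2169, 2695 and 2632 in NS and of 1744, 1416 and 1727 in HS. Each HS sample was below each NS sample, and the log2 fold change was -0.62 (standard error 0.25, limma adjusted p = 0.161). ND3, listed on MT from 9491 to 9837, had 2297, 2577 and 2211 in NS and 1905, 1221 and 1432 in HS (-0.66, limma adjusted p = 0.276). The catalytic COX1 overlapped between the groups, with 7598, 10813 and 10799 in NS and 7681, 5837 and 7205 in HS. Its log2 fold change was -0.49 (limma adjusted p = 0.410). CYTB had 3635, 4238 and 6379 in NS and 4375, 4372 and 5436 in HS, so that all HS samples lay inside the range of NS (0.03, limma adjusted p = 0.974).

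Among nuclear members, the largest difference was that of COX7A1, listed on an unplaced scaffold from 882135 to 883422. Its FPKM was 5.31, 4.12 and 8.16 in NS and 1.77, 3.71 and 1.25 in HS. The groups did not overlap, and the log2 fold change was -1.11 (standard error 0.34, limma adjusted p = 0.0738). Without HS replicate 2 it was -1.42 and passed the test (limma adjusted p = 0.0478), and over the single samples left out in turn the adjusted p was 0.0478 to 0.229. NS replicate 3, with the highest COX7A1, also had the highest summed FPKM of skeletal muscle markers (83.0, against 25.5 and 22.1 in the other NS samples), and the muscle marker MYBPC1 was lower in HS (-0.86, limma adjusted p = 0.0267). The part of muscle fibres in the COX7A1 difference was not tested. Of the tissue isoforms of COX6A, COX6B, COX7A, COX7B and COX8, COX7A1 and COX8A were the only symbols found by the rule, so none of these pairs could be set side by side.

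UQCRC1, a core subunit of complex III, had an FPKM of 79.3, 82.5 and 87.7 in NS and of 69.1, 64.8 and 66.5 in HS (-0.31, standard error 0.11, limma adjusted p = 0.112). NDUFA6, an accessory subunit of complex I, had 153, 154 and 167 in NS and 121, 121 and 110 in HS (-0.43, limma adjusted p = 0.174). In both genes the groups were apart, and neither passed the test. The 2 members of complex II, succinate dehydrogenase, differed in opposite directions without a call. SDHB, the iron-sulfur subunit, was 94.6, 110 and 106 in NS and 86.2, 89.0 and 90.0 in HS (-0.23). SDHC, a membrane anchor, was 72.7, 77.5 and 75.4 in NS and 87.3, 81.8 and 83.6 in HS (0.16, limma adjusted p = 0.575), which made it the 1 nuclear member with HS apart and higher, although its sign turned when FPKM was rescaled to total reads (-0.20). In ATP synthase, 4 of 6 nuclear members had a higher mean in HS, led by ATP5F1A, the alpha subunit, at 0.21 (limma adjusted p = 0.395), which turned to -0.16 under the same rescaling.

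The scaling of the libraries bears on this comparison. The deposited values were scaled between samples by a library size that exceeded the reads on genes in NS (ratio 1.12 to 1.20) and fell short of them in HS (ratio 0.873 to 0.932). When FPKM was rescaled to the total of reads on genes, the median of the mitochondrially encoded members went to -0.66 and that of the nuclear members to -0.48, with the median over all genes at -0.33. Under that scaling 1 of 13 and 7 of 34 members were called lower in HS by limma. Of all 13287 genes tested 2637 were then called, 446 of them higher in HS and the rest lower, where 990 were called with the deposited scaling.

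The mitochondrial rRNA genes, which lie next to ND1, had larger log2 fold changes than the protein genes. The gene of 957 bases, listed on MT from 70 to 1026, had an FPKM of 1081, 1546 and 1056 in NS and of 607, 456 and 391 in HS. Every HS sample was below every NS sample, and it fell by 1.34 on the log2 scale (standard error 0.33, limma adjusted p = 0.0336). The gene of 1579 bases, from 1093 to 2671, changed by -0.97 (limma adjusted p = 0.0947). Libraries were made from poly(A)-selected mRNA, so that rRNA was measured only as far as it was captured. Of 19 tested mitochondrial tRNA genes 16 had a lower mean in HS, with a median of -0.67, and 0 were called. Of all genes 48.6% had a higher mean. Along the 12 protein genes of the plus strand, differences between HS and NS tended to be larger near the rRNA genes (ND1 at -0.62, ND2 at -0.35, COX1 at -0.49) and smaller towards CYTB, with ND3 and ATP8 apart from that order. The log2 fold change and the order of the genes had a Spearman correlation of 0.69 and a Pearson correlation of 0.67 (n = 12 genes), and of 0.73 and 0.72 without ATP8. These genes share transcripts and libraries and are not independent, and this order was looked at after the values were seen. For 5-Fu injection minus HS the Spearman and Pearson correlations were -0.41 and -0.13, and -0.55 and -0.42 without ATP8. For drug-loaded MNs minus 5-Fu injection they were 0.69 and 0.27, and 0.73 and 0.36 without ATP8, and for drug-loaded MNs minus HS they were -0.24 and 0.02, and -0.36 and -0.35 without ATP8. These comparisons share samples.

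**Figure D3:**
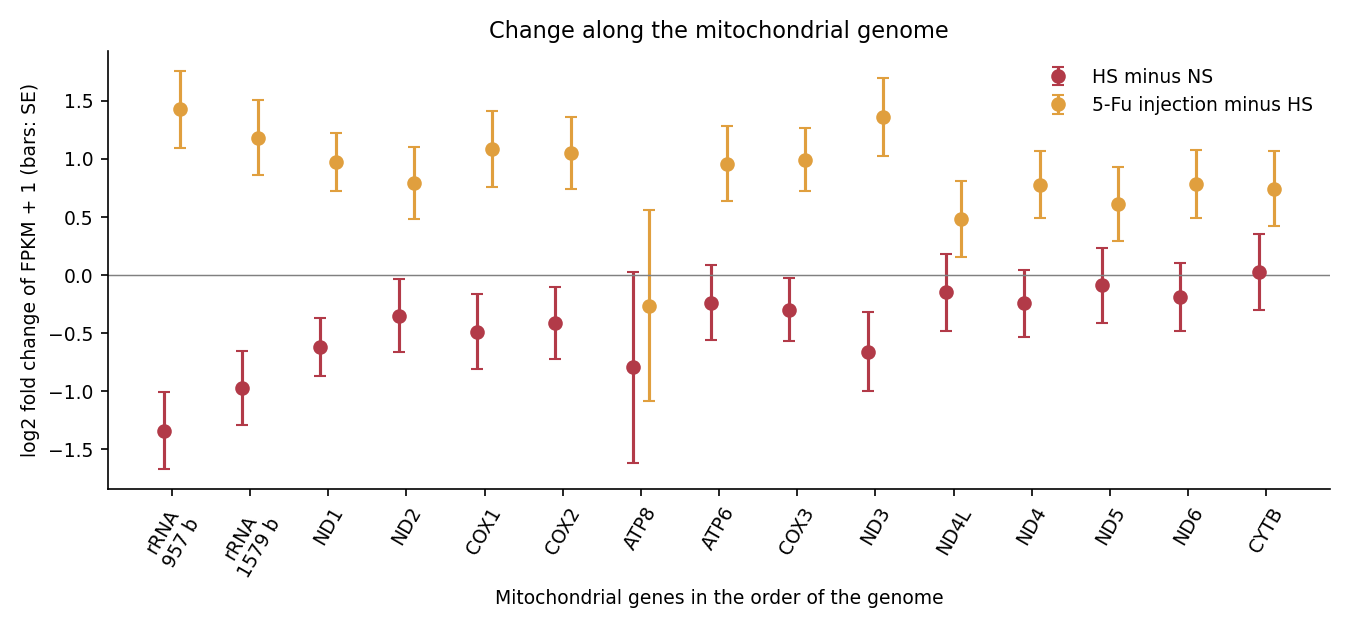
log2 fold change of the mitochondrial rRNA and protein genes in their order along the mitochondrial chromosome, for HS minus NS and for 5-Fu injection minus HS, with bars for the standard error of limma. In HS minus NS the rRNA genes are lowest, at -1.34 and -0.97, CYTB lies near 0, and ATP8 has the widest bar (standard error 0.82).

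The drug-loaded MNs group was compared with HS to ask what the patch changed. No oxidative phosphorylation gene passed the test, and the direction of the nuclear members depended on how they were scaled and named. Mean levels were higher than in HS for 10 of the 13 mitochondrially encoded and 17 of the 34 nuclear members, against 46.8% of all genes. The median log2 fold change was 0.14 for the former and 0.00 for the latter, against -0.02 for all genes tested. Rescaled to the total of reads, 11 and 32 had a higher mean (medians 0.29 and 0.15, against 0.11 for all genes), and with quantile normalization 7 and 21. Without drug-loaded MNs replicate 3, 7 of the 34 nuclear members were higher (median -0.09), and of the 54 subunits known only by description 42 were higher (median 0.14) and 0 called. By limma 0 of 13 and 0 of 34 members were called, where 0.00753% of all genes were, and 0 members had an unadjusted p under 0.05, against 4.78% of all genes in the higher and 4.12% in the lower direction. All samples with the patch were above all HS samples in 3 mitochondrially encoded members, ND1, COX2 and COX3, and 0 nuclear members, against 8.53% of all genes. ND4L was the 1 member with the patch lower in every sample, against 10.3% of all genes. Markers of cell types also differed, as 9 of 9 tested keratinocyte markers had a higher mean after the patch (median 1.28). For fibroblast markers 7 of 7 had a lower mean (median -0.82), and 0 of either list were called. Their part in the levels of the members was not tested.

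COX2 had an FPKM of 5944, 5651 and 6653 in HS and of 6945, 7298 and 9098 after drug-loaded MNs. The difference was 0.35 on the log2 scale, with a 95% interval of -0.33 to 1.02 (limma adjusted p = 0.797). ND1 was 1772, 1778 and 2246 after the patch (0.24, limma adjusted p = 0.826), and COX3 differed by 0.30. ND4L, a small complex I subunit, had 1223, 1198 and 1390 in HS and 1169, 1026 and 1086 after the patch (-0.21, limma adjusted p = 0.886). Nuclear members differed from HS by between -0.18 for NDUFA3 and 0.33 for NDUFA4L2. NDUFA4L2, known to be induced by hypoxia, varied widely within groups, with 45.6, 80.3 and 124 in HS and 72.7, 73.1 and 171 after the patch.

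ATP8 stood apart from the other mitochondrial genes in the spread of its samples. The NS samples had an FPKM of 294, 384 and 562, the HS samples 479, 428 and 58.8, the drug-loaded MNs samples 55.5, 79.8 and 68.6, and the 5-Fu injection samples 61.6, 218 and 521. HS replicate 3, 5-Fu injection replicate 1 and the 3 drug-loaded MNs samples were low, while the NS samples and the other samples were 218 or higher. The drug-loaded MNs group differed from HS by -1.76 (95% interval -3.56 to 0.04, limma adjusted p = 0.572), and by -2.73 without HS replicate 3. Listed on MT from 7796 to 7999, ATP8 shares 43 bases with ATP6, whose listed gene is far more abundant and did not show this pattern. ATP6 was 7666, 7222 and 9056 in HS and 9222, 8712 and 11202 after the patch. HS replicate 3 also had 1286 FPKM on an ATP6-like copy on an unplaced contig, where the other samples had 43.3 to 341. How reads were shared between copies is not given in the sources used here. The part of such sharing in the ATP8 values, which remain uncertain, was not tested.

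**Figure D4:**
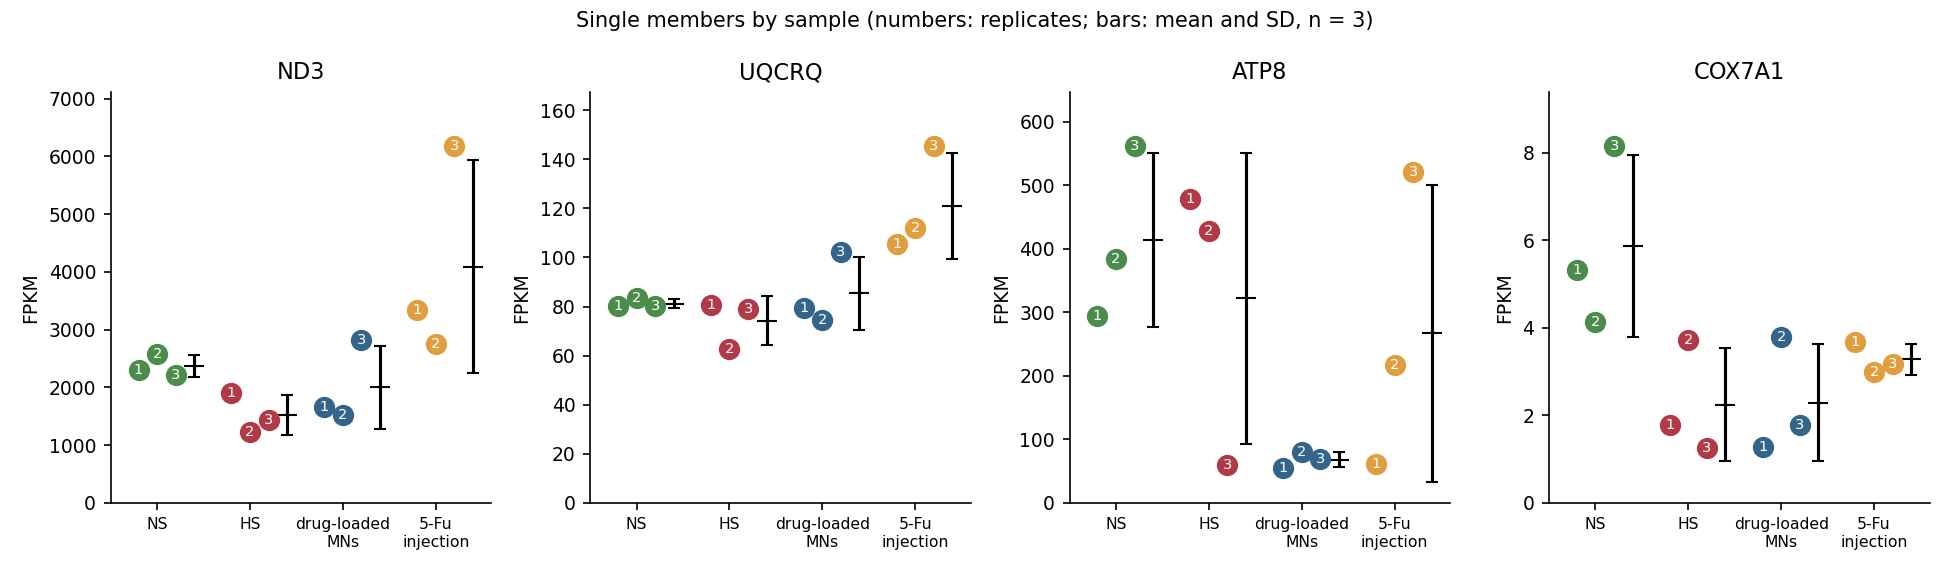
FPKM of ND3, UQCRQ, ATP8 and COX7A1 in each of the 12 samples by group, with numbered points for replicates and bars for the mean and SD (n = 3). ATP8 is at most 79.8 FPKM in 5 samples and at least 218 in the other 7, and ND3 and UQCRQ are higher in all 5-Fu injection samples than in all HS samples.

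The 5-Fu injection group was compared with HS as the conventional treatment. Most oxidative phosphorylation genes had higher means after the injection, with a larger median for the mitochondrially encoded than for the nuclear ones, and ND3 and UQCRQ passed the test. Means were higher for 12 of 13 mitochondrially encoded members (all but ATP8) and for 32 of 34 nuclear members (all but NDUFS1 and ATP5F1B), against 51.4% of all genes tested. The median log2 fold change was 0.80 for mitochondrially encoded and 0.30 for nuclear members, against 0.02 for all genes, and with quantile normalization it was 0.46 and 0.19. By limma 1 of 13 and 1 of 34 members were called, both higher, where 4.4% of all genes were called in either direction and 1.23% were called higher and 3.17% lower. At an unadjusted p under 0.05, 10 of 13 and 12 of 34 members were higher, against 11.6% of all genes, and 0 were lower, against 14.4%. All 5-Fu injection samples exceeded all HS samples in 7 of 13 and 14 of 34 members, against 13.9% of all genes, and all lay below HS in 0 members, against 16.4%.

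ND3 rose from an FPKM of 1905, 1221 and 1432 in HS to 3340, 2741 and 6187 after 5-Fu injection. All 3 injected samples lay above HS, and replicate 3 was the highest. The log2 fold change was 1.36 (standard error 0.34, 95% interval 0.62 to 2.11, limma adjusted p = 0.0478). UQCRQ, a small subunit of complex III listed on chromosome 3 from 15890479 to 15891568, rose from 80.8, 62.8 and 79.0 in HS to 105, 112 and 146. Its groups did not overlap either, and the log2 fold change was 0.69 (standard error 0.17, 95% interval 0.32 to 1.06, limma adjusted p = 0.0445). Both adjusted p lay just under the threshold, and with each of the 12 samples left out in turn both calls held only without 5-Fu injection replicate 2 and without drug-loaded MNs replicate 3. Over these 12 settings the limma adjusted p ranged from 0.0213 to 0.143 for ND3 and from 0.0369 to 0.139 for UQCRQ. With only the compared groups in the fit it was 0.124 and 0.121, and 0 of all genes tested were called in that fit.

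The catalytic and core subunits of complex IV had larger differences than most members without passing the test. COX1 had an FPKM of 7681, 5837 and 7205 in HS and of 11738, 14106 and 18777 after 5-Fu injection. The groups did not overlap, and the log2 fold change was 1.09 (standard error 0.33, limma adjusted p = 0.0754). COX2 was 9209, 12625 and 17109 after the injection, a log2 fold change of 1.05 (limma adjusted p = 0.0708), and COX3 was 5132, 6989 and 8980 against 3604, 3139 and 3607 in HS (0.99, limma adjusted p = 0.0598). All 3 genes were higher in each injected sample than in any HS sample. By limma voom on the reads, COX1, COX2, COX3, ND1 and ND3 were all called, and UQCRQ as well. Over 10 alternatives that kept all samples of the groups compared, COX1 and COX2 were called in 4 and COX3 in 5, with limma adjusted p of 0.0416 to 0.471, 0.0379 to 0.447 and 0.0373 to 0.281, highest without the filter on low values. With single samples left out in turn, none of the 3 was called.

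The other mitochondrial genes of complexes I, III and V followed with smaller values. ND1 was 2333, 3251 and 4249 after the injection, above the 1416 to 1744 of HS (0.97, limma adjusted p = 0.0510). ATP6 was 11150, 15556 and 21304, above the 7222 to 9056 of HS (0.96, limma adjusted p = 0.0982). ND6, the only protein gene read from the minus strand, had 2740, 2689 and 3183 in HS and 3307, 5274 and 6917 after the injection (0.79, limma adjusted p = 0.126). In these genes too the groups were apart, while in ND2 (0.80), ND4 (0.78), CYTB (0.75), ND5 (0.61) and ND4L (0.48) they overlapped. CYTB had 5171, 9047 and 10477, of which the first lay below the highest HS sample. In ND2, ND4, ND5 and ND4L replicate 1 of the 5-Fu injection group lay within or below the range of HS, and in ND4L, at 973, it was the lowest of the 12 samples. ND4L and ND4 share 7 bases, and ND5 and ND6, on opposite strands, share 5. How reads that touch these bases were assigned is not given in the sources used here.

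Nuclear members of complex I had a median log2 fold change of 0.34 and were led by NDUFV2, a subunit of its NADH-oxidizing module. NDUFV2 had an FPKM of 74.9, 67.7 and 67.5 in HS and of 88.4, 87.7 and 140 after 5-Fu injection (0.55, standard error 0.18, limma adjusted p = 0.0921). NDUFB9 differed by 0.47 (limma adjusted p = 0.0887). NDUFS1, the largest subunit of the complex, had 26.4, 26.5 and 27.3 in HS and 21.8, 26.7 and 27.7 after the injection, so that the groups overlapped (-0.08). In complex II, SDHB was 102, 107 and 144 after the injection, above the 86.2 to 90.0 of HS (0.39, limma adjusted p = 0.117), and SDHC was 88.9, 71.3 and 110, on both sides of HS (0.07). In complex III, UQCRC1 was 79.1, 78.3 and 89.6 and lay above every HS sample (0.30, limma adjusted p = 0.121), while UQCRB overlapped (0.06).

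The nuclear members of complex IV had a median of 0.32. COX8A, the most abundant of them, had an FPKM of 443, 375 and 334 in HS and of 466, 444 and 581 after 5-Fu injection (0.37, limma adjusted p = 0.204). The 6 ATP synthase genes with a symbol had the lowest nuclear median, 0.08, and differed among themselves. This order did not extend to the genes known only by description, where 14 of ATP synthase had a median of 0.45, against 0.32 for 16 of complex I and 0.35 for 5 of complex III. ATP5F1E was 650, 623 and 572 in HS and 1149, 812 and 965 after the injection, with every treated sample above HS (0.65, standard error 0.20, limma adjusted p = 0.0803). The catalytic ATP5F1B was 360, 267 and 304 in HS and 297, 292 and 293 after the injection, with a log2 fold change of -0.07 (95% interval -0.39 to 0.26). ATP5F1A differed by 0.03. Complex II, which has no mitochondrially encoded subunit, had a median of 0.23.

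**Figure D5:**
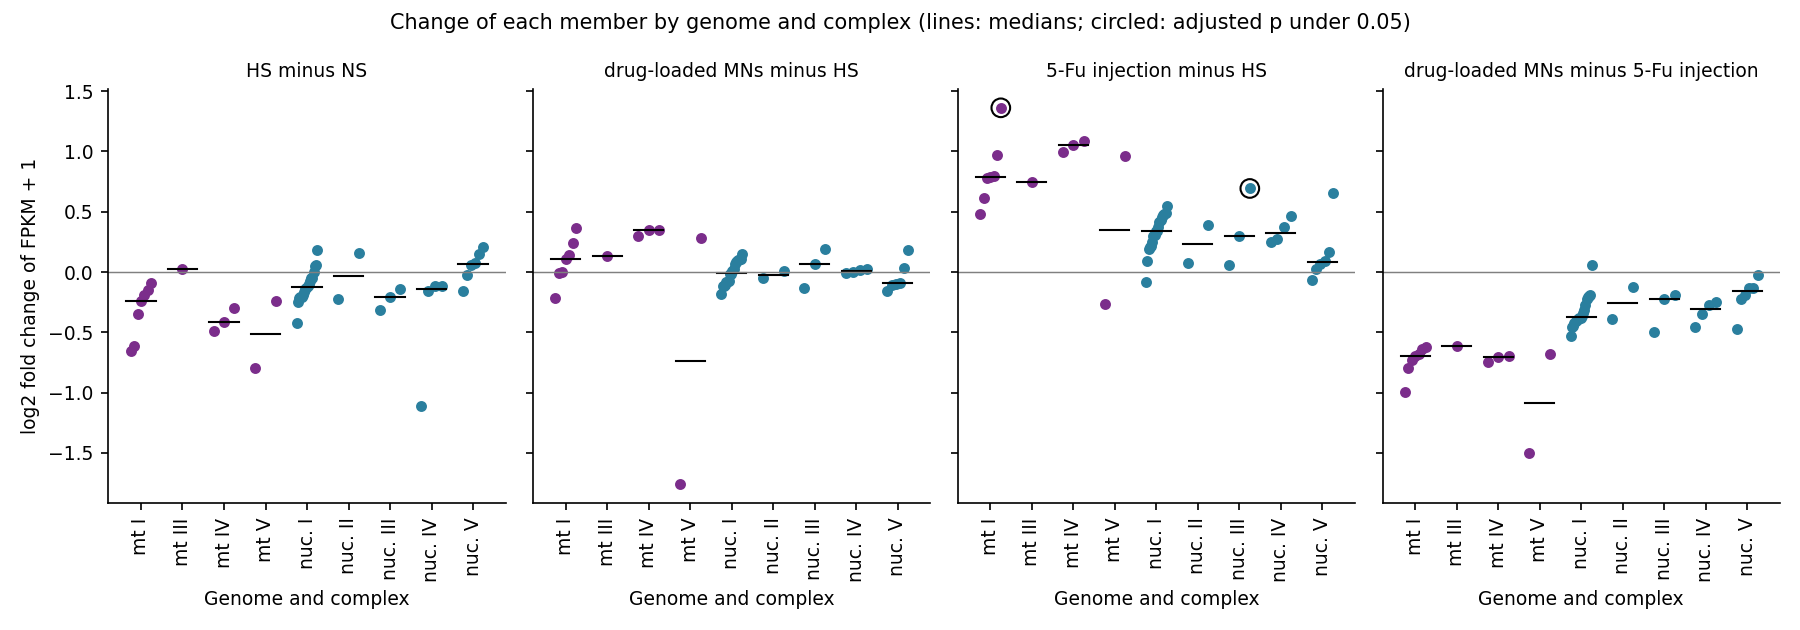
log2 fold change of single members by complex, for mitochondrially encoded and nuclear members in each of the 4 comparisons, with points for genes, lines for medians and circles around genes called at an adjusted p under 0.05 (ND3 and UQCRQ), while NDUFA4L2 is not drawn. In 5-Fu injection minus HS the mitochondrial medians are 0.79, 0.75, 1.05 and 0.35 for complexes I, III, IV and V, and the nuclear medians 0.34, 0.23, 0.30, 0.32 and 0.08 for complexes I to V.

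These differences leaned on 5-Fu injection replicate 3, which held the highest of the 12 values in 92.3% of the mitochondrially encoded and 79.4% of the nuclear members, against 14.9% of all genes tested. Without it 12 of 13 mitochondrially encoded members still had a higher mean than HS, with a median of 0.58, and 26 of 34 nuclear members, with a median of 0.18. Called were 0 of either kind, and only 12 of all 13287 genes tested, against 585 with all samples. Without replicate 1 the medians were 1.18 and 0.34, and 0 members and only 17 of all genes were called. Without replicate 2, which had the high fibroblast marker sum, the medians were 0.74 and 0.34. By limma 1 mitochondrially encoded (ND3) and 4 nuclear members (ATP5F1E, NDUFB11, NDUFB9, UQCRQ) were then called. Calls over all genes rose as well, to 1548, 583 of them higher, against 585 and 164 with all samples. Short genes as a whole had higher fold changes after the injection, with a median of 0.18 over the 3058 tested genes under 1000 bases and -0.02 over the 10229 others. Of the nuclear members 25 are under 1000 bases, with a median of 0.34, and 9 are longer, with a median of 0.17. The part of gene length in the nuclear difference was not tested. The fibroblast markers COL1A1, LUM and COL3A1 fell, at -2.69, -2.12 and -1.93 on the log2 scale (limma adjusted p = 0.0421, 0.0492 and 0.0387). All 7 tested fibroblast markers had a lower mean (median -1.93). The keratinocyte marker KRT15 rose by 1.49 (limma adjusted p = 0.0426) and was the only 1 of 9 called. Of these 9, 8 had a higher mean (median 0.84), against 51.4% of all genes, and CDH1 a lower one (-0.22). The part of this change of tissue makeup was not tested.

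The mitochondrial rRNA gene of 957 bases rose after 5-Fu injection, from 607, 456 and 391 FPKM to 1141, 895 and 2075 (1.43, standard error 0.33, limma adjusted p = 0.0400). The gene of 1579 bases differed by 1.18 (limma adjusted p = 0.0594). All 19 tested mitochondrial tRNA genes had a higher mean, against 51.4% of all genes, with a median of 0.98. Of 8 copies of mitochondrial genes on an unplaced contig, 2 were called higher, where 1.23% of all genes were. They were an ND4-like copy (1.25, limma adjusted p = 0.0372) and MTRNR2L10 (1.10, limma adjusted p = 0.0246). The 8 copies together took 0.00929% to 0.0498% of the reads on genes, and whether their reads came from the mitochondrial chromosome was not tested. COX4I1, a regulatory subunit of complex IV outside the naming rule, had means of 506 in HS and 781 after the injection (0.62, limma adjusted p = 0.108). COX4I2 differed by 0.62 (limma adjusted p = 0.362) and NDUFAB1, the acyl carrier of complex I, by 0.26 (limma adjusted p = 0.358). A further 54 tested subunit genes carry no symbol and were recognised by their description. Of these 49 had a higher mean after the injection, against 51.4% of all genes, with a median of 0.43, and 0 were called.

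In the direct comparison of both treatments, the drug-loaded MNs group had lower means than the 5-Fu injection group for 13 of 13 mitochondrially encoded and 32 of 34 nuclear members, while 50.3% of all genes had a higher mean. The median log2 fold change was -0.70 and -0.29, against 0.00 for all genes. Without 5-Fu injection replicate 3 it was -0.48 and -0.16, with 7 of 34 nuclear members higher, and with quantile normalization it was -0.40 and -0.16. By limma 0 of 13 and 0 of 34 members were called, where 0% of all genes were. At an unadjusted p under 0.05, 8 and 11 members were lower after drug-loaded MNs, against 6.97% of all genes, and 0 were higher, against 8.15%. All drug-loaded MNs samples were below all 5-Fu injection samples in 4 and 10 members, against 8.42% of all genes, and above them in 0 members, against 8.64%. The smallest adjusted p of a member was that of NDUFS3, a core subunit of the peripheral arm of complex I, at 0.251 (limma, log2 fold change -0.39). NDUFS3 was 117, 109 and 121 FPKM after drug-loaded MNs and 135, 148 and 174 after 5-Fu injection, with the groups apart. ND3 was 1667, 1516 and 2826 after drug-loaded MNs, and its highest sample exceeded the lowest 5-Fu injection sample (-0.996, limma adjusted p = 0.261). The medians by complex were -0.70, -0.61, -0.70 and -1.09 for the mitochondrial members of complexes I, III, IV and V. For the nuclear members they were -0.37, -0.25, -0.22, -0.31 and -0.16 for complexes I to V. The comparisons with HS and this one share samples and are not independent of each other.

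Set beside normal skin, with no test, 3 of 13 mitochondrially encoded members had a higher mean after drug-loaded MNs than in NS, with a median difference of -0.10, and 12 of 13 after 5-Fu injection, with a median of 0.60. For nuclear members these were 10 of 34 (-0.11) and 29 of 34 (0.22).

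Other genes of the pathway were followed as lists. Of 32 tested assembly factors, which build the complexes without remaining in them, 2 were called higher after 5-Fu injection, where 1.23% of all genes were, and 0 were called in the other comparisons. They were PET100, needed for complex IV assembly, with means of 60.3 in HS and 129 after the injection (1.08, limma adjusted p = 0.0272), and NDUFAF3, which acts early in complex I assembly, with 79.8 and 129 (0.68, limma adjusted p = 0.0266). In the same comparison 22 of the 32 had a higher mean, against 51.4% of all genes, and their median was 0.16. Of 9 carriers that work beside the complexes, 16 tricarboxylic acid cycle genes and 12 mitochondrial RNA processing genes, 0 were called by limma in any comparison. Called lower in HS than in NS were 2.21% of all genes. Among 13 genes of mitochondrial transcription and DNA maintenance, 1 was called, RRM2B, a ribonucleotide reductase subunit, lower in HS than in NS (2.30 against 5.14 FPKM, -0.89, limma adjusted p = 0.0287). Among 12 regulators of mitochondrial biogenesis, 1 was called, the coactivator PPARGC1B, lower in HS (1.60 against 3.16 FPKM, -0.68, limma adjusted p = 0.0452). Among 13 glycolysis genes, 1 was called, the glucose transporter SLC2A1, lower in HS (23.5 against 65.0 FPKM, -1.38, limma adjusted p = 0.0140). After 5-Fu injection the glycolysis genes had a median of 0.27 and the tricarboxylic acid cycle genes one of -0.14 against HS, which stood beside the 0.30 of the nuclear oxidative phosphorylation genes.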

How the data were processed

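Per the study's methods mRNA was captured on poly-T beads and sequenced on an Illumina NovaSeq, and the authors deposited 1 table of FPKM per gene and sample. Aligner, counting tool and genome build are not given in the sources used here, and coordinates are as the table gives them. The authors used DESeq2 on counts for their own comparisons. FPKM multiplied by gene length fell on whole multiples of a step per sample in 100% of values (relative tolerance 0.0001), so reads on genes were counted back and used for shares and for limma voom.

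Samples were grouped by their labels. Groups were compared with limma 3.58.1 in R 4.3.3 on log2(FPKM + 1), all 12 samples in 1 fit whose prior variance followed the mean level. P-values were adjusted by Benjamini-Hochberg over 13287 genes whose FPKM averaged at least 1. Fold changes are on that scale and understate the change of low genes. Members were called at an adjusted p under 0.05. Shares carry an exact 95% Clopper-Pearson interval. The fit was tested on simulated data.

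Members and lists were chosen with earlier results of these data known. Named are all mitochondrially encoded members, called members, nuclear members with the highest or lowest change in a complex, NDUFA4L2, complex IV isoforms and called genes of the lists (assembly factors, carriers, tricarboxylic acid cycle, mitochondrial transcription, RNA processing, biogenesis, glycolysis, skin cell markers). The others named (NDUFB9, NDUFB11, NDUFS3, COX4I1, COX4I2, NDUFAB1, MTRNR2L10 and the order along the mitochondrial chromosome) were chosen after values were seen.

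Alternatives were a pseudocount of 0.1, quantile normalization, no filter, a filter at a mean FPKM of 5, rescaling to total reads or to reads outside the mitochondrial members, only the groups compared, no trend, a replicate block, limma voom, medians or summed FPKM in place of means, and each sample left out in turn. The ratio without ATP8 and with subunits named by description was added after seeing the data. Promoter sequences and motifs were not analysed here. 1 list of cell type markers is not reported here.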

Additional observations from a re-analysis of the deposited data

How the results depend on the processing

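Calls of single members lay close to the threshold, and their counts moved with the processing by limma. Mitochondrially encoded members called between 5-Fu injection and HS numbered 1, and were 0 without the filter, with quantile normalization, with only the groups compared and with a replicate block, 3 when rescaled to total reads, 5 at a mean FPKM of at least 5, when rescaled to reads outside the mitochondrial members or by limma voom, and 6 without the trend. Nuclear members numbered 1, and were 0 without the filter, with only the groups compared, without the trend and with the replicate block. They were 2 when rescaled to total reads and 5 when rescaled to reads outside the mitochondrial members. Over all genes the calls numbered 585. In the order of settings given for the mitochondrially encoded members, all genes called were 143, 538, 0, 123, 542, 659, 851, 620 and 548. The number of genes tested differed where the filter changed. Between HS and NS, mitochondrially encoded members numbered 0 and were 1 under both rescalings, and nuclear members numbered 0 and were 1 with quantile normalization, 7 when rescaled to total reads and 11 when rescaled to reads outside the mitochondrial members. Of all 13287 genes, 990 were called between HS and NS, 1002 with quantile normalization, and 2637 and 2939 under the rescalings. Of the latter 2 counts 446 and 434 were higher in HS and the rest lower. Both rescalings lowered HS against NS in all genes, by -0.33 and -0.36 in the median. They turned ATP5F1A from 0.21 to -0.16 and -0.19 and SDHC from 0.16 to -0.20 and -0.23. With single samples left out, the counts were 0 to 1 and 0 to 4 for mitochondrially encoded and nuclear members after 5-Fu injection. Between HS and NS they were 0 to 0 and 0 to 1. Members had 0 calls in the other comparisons, also under every other alternative. Over all genes, calls with single samples left out ranged from 0 to 1548 after 5-Fu injection and from 433 to 1206 between HS and NS. The mitochondrial to nuclear difference between drug-loaded MNs and HS was 0.02, and 0.20 with medians, 0.22 with summed FPKM, 0.17 without ATP8 and -0.10 with subunits named by description. Between 5-Fu injection and HS it was 0.51, and 0.85 with medians. The cause of these moves was not tested. Same-numbered samples came from different rabbits, and their deviations correlated by -0.07 to 0.11 on average. With the replicate block ND3 had a limma adjusted p of 0.0639 and UQCRQ of 0.0598.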
